A study of Homo sapiens with 8 samples.

Results

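The proteasome is described here through the ribosome footprints on its own mRNAs. Of the 20719 genes listed, 51 had a symbol that starts with PSMA, PSMB, PSMC, PSMD, PSME or PSMG followed by a digit, or were POMP or SEM1. Of these, 49 encode subunits, assembly factors or activators of the proteasome. The other 2, PSMC3IP and PSME3IP1, carry such a name without being part of the complex and were kept as members. At least 1 count was found for 48 members, and 47 passed edgeR's filter on low counts, among 11097 genes tested. PSMB8 was counted but not tested, and PSMA2, PSMA8 and PSMB11 were at 0 in every library.

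The libraries are ribosome profiling of G401, a rhabdoid kidney tumor line that lacks SMARCB1, a subunit of the mSWI/SNF chromatin remodeler. The cells carried doxycycline-inducible SMARCB1 (the SMARCB1 line) or GFP (the GFP line). Each line received 0.1 μg/ml doxycycline (SMARCB1 Dox and GFP Dox) or DMSO in its place (SMARCB1 DMSO and GFP DMSO) for 12 h, with 2 libraries per group. The experiments were done in duplicate, and the sources used here do not say whether the duplicates came from independent cultures, so p-values measure the spread between these libraries, which may be technical. Plates of a condition were pooled before profiling, so a library averages over plates, and the lines differ in their transgene and in any other way in which they were derived, which cannot be told apart.

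Proteasomes degrade proteins marked with ubiquitin. The core particle is a barrel of α and β rings whose catalytic β subunits cut the substrate, and the regulatory particle caps it. The base of the regulatory particle holds the ATPases that unfold the substrate, and its lid removes the ubiquitin chain. Interferon induces alternative catalytic subunits, which replace the constitutive ones in the immunoproteasome and alter the peptides offered to MHC class I. When proteasomes are impaired, the transcription factor NFE2L1 raises the transcription of their subunits through antioxidant response elements.

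The libraries held between 5924443 and 14000039 counts on genes, and levels are given as CPM, the counts relative to the library total scaled with TMM. SMARCB1 had 2553 and 1750 counts in SMARCB1 Dox and 0 in the other 6 libraries, although 82.7% of its windows of 28 bases are repeated on alternate scaffolds of hg38, so its level is uncertain. Reads with more than 1 alignment made up 56.4% of GFP Dox replicate 1 and between 25.6% and 39.7% of the others. The proteasome genes took 1.21% to 1.64% of the counts on genes, the highest share in GFP Dox replicate 1. Blood cells, which are rich in immunoproteasome, left little trace: PTPRC, CD3E and CD14 were at 0 in all libraries, LYZ had at most 1 count and CD79A at most 8. VIM, a mesenchymal marker, had 7325 to 43432 counts.

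Promoter sequences are shown first for the interferon-inducible members, whose footprint levels below lie far apart from each other. RefSeq windows of 300 bases (GRCh38.p14, 250 before the transcription start and 50 after) were found for 43 of the 49 proteasome genes, 53 windows in all. The interferon-stimulated response element was searched on both strands as GAAA, any 2 bases and GAAA. It was present in 7 of the 53 windows (13.2%) and in 3.57% of all 35116 promoter windows. Its 7 genes were PSMB8, PSMB10, PSME1, PSME2, PSMA4, PSMB4 and PSMG4, so that 2 of the immunoproteasome subunits and the pair of interferon-inducible activators were among them. The windows of these 4 genes are given 5′ to 3′ on the strand of transcription, with the element in capitals.
PSMB8, chr6:32844030-32844063, minus strand: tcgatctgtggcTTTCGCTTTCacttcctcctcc
PSMB10, chr16:67936850-67936883, minus strand: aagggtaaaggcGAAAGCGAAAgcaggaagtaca
PSME1, chr14:24136187-24136220, plus strand: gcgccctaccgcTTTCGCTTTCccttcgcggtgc
PSME2, chr14:24146617-24146650, minus strand: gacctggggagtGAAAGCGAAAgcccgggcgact

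PSMB9, the remaining immunoproteasome subunit, was the only member at an adjusted p below 0.05 by edgeR in the added contrast described below. That call depended on single libraries, and other fits called further members. The whole window of PSMB9 is given. It held neither this element nor the γ-activated sequence searched as TTCNNNGAA. The latter was in 8 of the 53 windows (15.1%) and in 7.66% of all promoter windows. Capitals in the PSMB9 window mark a CCAAT box and an antioxidant response element, searched as CCAAT and TGACNNNGC on both strands.
PSMB9, chr6:32853942-32854241, plus strand: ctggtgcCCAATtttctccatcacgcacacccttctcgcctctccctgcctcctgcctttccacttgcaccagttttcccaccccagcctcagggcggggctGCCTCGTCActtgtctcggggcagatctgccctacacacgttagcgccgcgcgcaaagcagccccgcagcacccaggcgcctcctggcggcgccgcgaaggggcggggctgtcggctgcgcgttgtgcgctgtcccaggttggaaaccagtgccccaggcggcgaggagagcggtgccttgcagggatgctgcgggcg

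The antioxidant response element was in 16 of the 53 proteasome windows (30.2%) and in 13.3% of all promoter windows, and CCAAT in 21 (39.6%) and 34.6%. A match describes letters only. The antioxidant response element was in 8 of 35 windows (22.9%) of structural core and regulatory subunits, against 8 of 18 (44.4%) of the other proteasome genes. The structural subunits PSMC4, PSMD1 and SEM1 also held it and are not shown. The element is shown in capitals for 5 structural subunits of the core, base and lid. They are given because footprints on NFE2L1 itself differed between the lines under DMSO, at the adjusted p alone.
PSMA4, chr15:78540648-78540680, plus strand: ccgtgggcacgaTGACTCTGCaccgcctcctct
PSMB3, chr17:38752625-38752657, plus strand: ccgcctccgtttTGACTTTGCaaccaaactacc
PSMC5, chr17:63827652-63827684, plus strand: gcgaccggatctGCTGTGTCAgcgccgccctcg
PSMD12, chr17:67366722-67366754, minus strand: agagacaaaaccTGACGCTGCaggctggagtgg
PSMD3, chr17:39980758-39980790, plus strand: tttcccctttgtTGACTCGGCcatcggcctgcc

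Most subunits of the core and regulatory particles had dense footprints, while few were counted on immunoproteasome subunits. Levels are compared between genes as CPM per kilobase of the canonical coding sequence, averaged over the 8 libraries. PSMB4, a β-ring subunit, was the densest of the 14 core members at 1104 ± 181 (SD, n = 8), above 99.2% of the genes tested. The α-ring subunit PSMA7 was the densest of its ring at 851 ± 156 (SD, n = 8). The median over the 13 core members with counts was 428, and the median over the 18 regulatory members was 302.

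**Figure D1:**
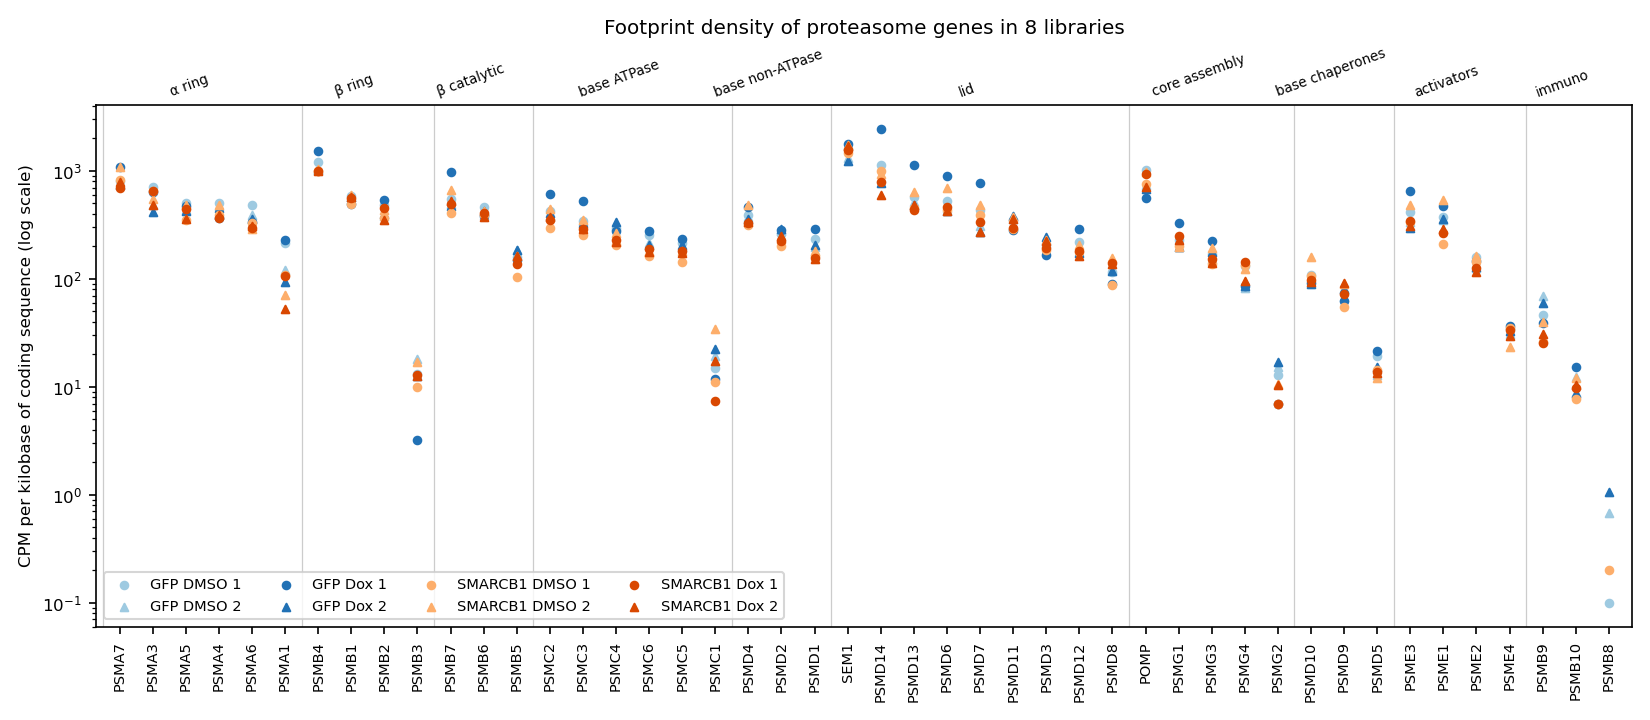
Footprint density of the proteasome genes with counts, as CPM per kilobase of canonical coding sequence on a log axis, with 1 point per library (circles for replicate 1, triangles for replicate 2), ordered by role and level; zeros of PSMB8 are not drawn. Most core and regulatory subunits average from 121 (PSMD8) to 1104 (PSMB4), and PSMB3, PSMC1, PSMG2, PSMD5, PSMB10 and PSMB8 lie far below.

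Several low values coincided with coding sequence that the counting could not assign to 1 gene. Counting kept reads that aligned once and lay in the coding sequence of a single gene. PSMA2, an α-ring subunit, shares 97.8% of its annotated coding bases with an overlapping readthrough gene (ENSG00000256646), which was also at 0. PSMA1, another α-ring subunit, shares 59.1% with ENSG00000256206 and averaged 125 ± 63.5 CPM per kilobase (SD, n = 8). PSMC1, an ATPase of the base, has 13 named pseudogenes, and 100% of its windows of 28 bases occur elsewhere in the genome. It averaged 17.3 ± 8.43 CPM per kilobase (SD, n = 8), the lowest of the regulatory members, where its 5 fellow ATPases averaged 193 to 413.

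PSMB3 of the β ring, PSMB8 and PSMB9 are also represented on alternate or unplaced scaffolds of hg38, which repeat 82.1%, 84.8% and 80.2% of their windows of 28 bases. PSMB3 averaged 12.4 ± 4.53 CPM per kilobase (SD, n = 8), against 156 to 1104 for the other β-ring subunits. The 779 genes with at least 80% of their windows on such scaffolds had a median count of 0 over the 8 libraries, and 69.6% of them were at 0 throughout. The 18111 genes with none there had a median of 203 and 27.6% at 0. The sources used here do not give whether the authors' genome index held these scaffolds, so the levels of these 3 genes relative to other genes are uncertain. In all, 16 members shared at least 20% of their sequence by one of these measures and 35 shared less.

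Among members that shared less than 20%, the 10 core subunits ranged from PSMB5 at 156 to PSMB4 at 1104 CPM per kilobase (7.09-fold), with a median of 496. The 12 regulatory subunits ranged from PSMD8 of the lid at 121 to PSMD14, the deubiquitinase of the lid, at 1065 (8.83-fold), with a median of 339. The ranges overlapped almost entirely. SEM1, the smallest lid subunit, had the highest level of all members at 1547 ± 194 (SD, n = 8), but its canonical coding sequence holds only 210 bases of the 1065 annotated for the gene, so this density is uncertain. In the 8 libraries SEM1 had 333 and 279 CPM in GFP DMSO, 371 and 259 in GFP Dox, 306 and 361 in SMARCB1 DMSO, and 329 and 361 in SMARCB1 Dox. These ranges overlapped.

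Summed per library, core density was 5394 to 7183 CPM per kilobase and regulatory density 6230 to 10826. The core over regulatory ratio was 0.664 in GFP Dox replicate 1 and 0.81 to 0.885 in the other 7. These sums cover 13 core members with counts and 18 regulatory members, SEM1 included, so their ratio also depends on the number of subunits. With the median subunit of each particle in place of the sum, the ratio was 1.37 to 1.7. With the mean of the members under 20% shared, it was 1.03 in GFP Dox replicate 1 and 1.44 to 1.62 in the others. The lowest value in GFP Dox replicate 1 came with a lid sum of 7840 CPM per kilobase, where the other 7 libraries held 4114 to 5457. Groups overlapped in the ratio of medians. In the ratio over members under 20% shared, both SMARCB1 Dox libraries (1.62 each) lay above the other 6, a difference with no test.

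**Figure D2:**
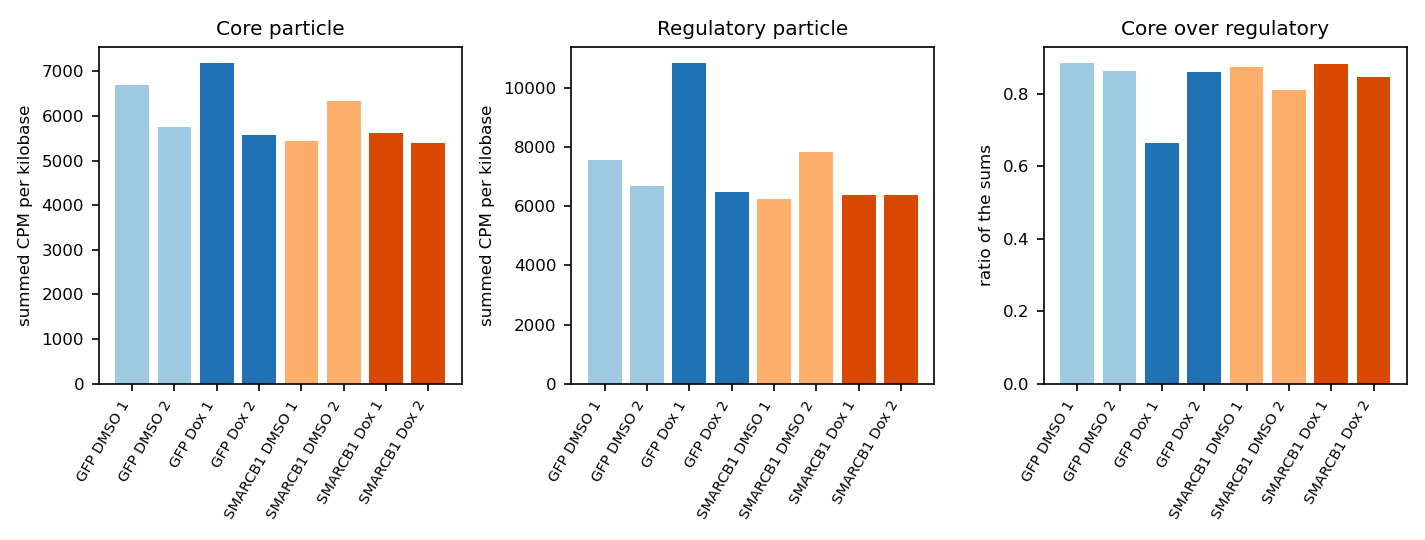
Summed CPM per kilobase of the core particle (left) and the regulatory particle (middle), and their ratio (right), with 1 bar per library colored by group. GFP Dox replicate 1 has the highest sums (7183 and 10826) and the lowest ratio (0.664).

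The constitutive catalytic subunits had higher measured levels than their interferon-inducible counterparts. For PSMB8 and PSMB9 the size of this gap is uncertain, given their copies on alternate scaffolds, and only the pair of PSMB7 and PSMB10 is free of this limit. PSMB6, which bears the caspase-like site, had 331 and 281 CPM in GFP DMSO, 271 and 307 in GFP Dox, 281 and 307 in SMARCB1 DMSO, and 294 and 270 in SMARCB1 Dox. Its counterpart PSMB9 had 30.6 and 45.9 CPM in GFP DMSO, 25.8 and 39.5 in GFP Dox, 17 and 26.4 in SMARCB1 DMSO, and 16.8 and 20.5 in SMARCB1 Dox. PSMB6 was nearly flat over the libraries, with a highest value 1.22-fold above the lowest, while PSMB9 spanned 2.73-fold. Per kilobase, PSMB9 was at 6.25% to 17.8% of PSMB6.

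PSMB7, which bears the trypsin-like site, had 453 and 414 CPM in GFP DMSO, 812 and 391 in GFP Dox, 342 and 558 in SMARCB1 DMSO, and 411 and 434 in SMARCB1 Dox. PSMB10, which takes its place in the immunoproteasome, had 6.58 and 10.0 CPM in GFP DMSO, 12.4 and 7.25 in GFP Dox, 6.34 and 9.89 in SMARCB1 DMSO, and 7.95 and 8.56 in SMARCB1 Dox. Both were highest in GFP Dox replicate 1. Per kilobase PSMB10 was at 1.47% to 2.45% of PSMB7, and few of its windows occur elsewhere (1.89%, with none on alternate scaffolds), although 14.1% of its coding bases overlap another gene.

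PSMB5, which bears the chymotrypsin-like site, had 127 and 147 CPM in GFP DMSO, 118 and 146 in GFP Dox, 80.9 and 128 in SMARCB1 DMSO, and 107 and 128 in SMARCB1 Dox. PSMB8, its counterpart, had 1 and 8 counts in GFP DMSO, 0 and 6 in GFP Dox, 1 and 0 in SMARCB1 DMSO, and 0 in both SMARCB1 Dox libraries. PSMB8 was thus near the limit of detection, since 3 counts, which a count of 0 allows, correspond to 0.208 to 0.5 CPM depending on the library. Without molecular identifiers this limit covers counting error only. The same limit holds for PSMA8, the testis form of an α subunit, and for PSMB11, the thymus-specific catalytic subunit, both at 0. For PSMA2 it bears on reads that could be assigned to that gene alone.

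The 3 immunoproteasome subunits together made up 4.48% and 7.14% of the catalytic density in GFP DMSO and 3.49% and 6.07% in GFP Dox. In the SMARCB1 line they made up 3.6% and 3.98% under DMSO and 3.28% and 3.77% under Dox. The lines overlapped through GFP Dox replicate 1. These shares rest mostly on PSMB9 and are subject to its uncertain level.

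**Figure D3:**
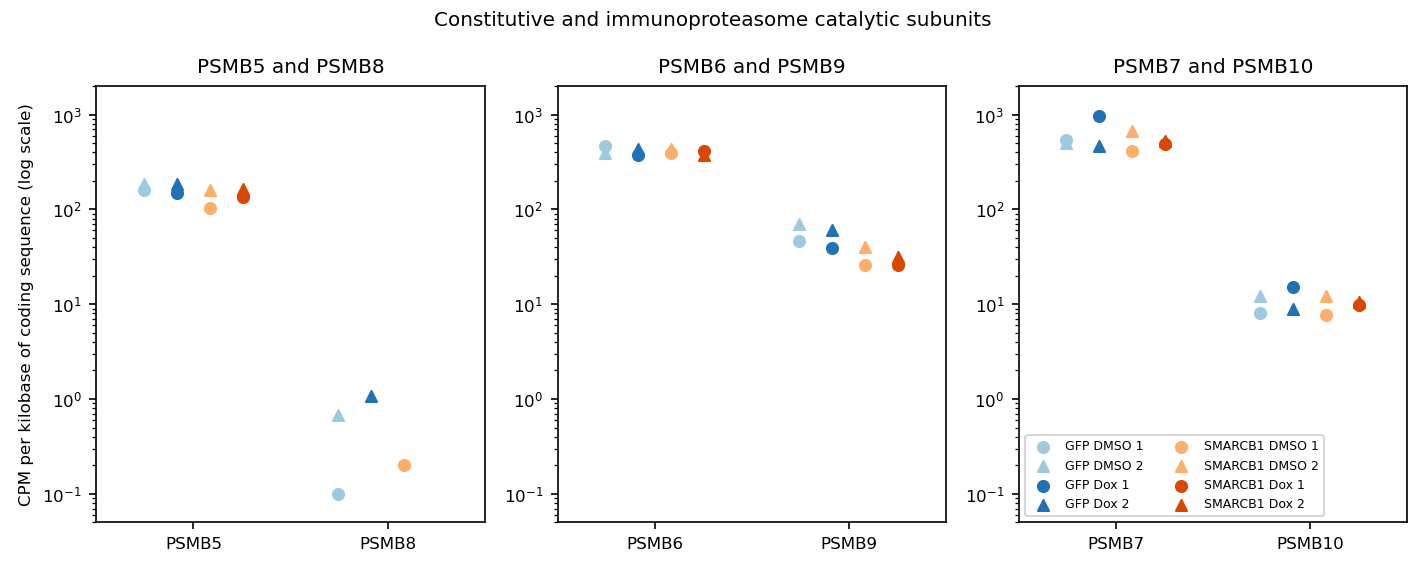
CPM per kilobase of each constitutive catalytic subunit and of its immunoproteasome counterpart, on a log axis, with 1 point per library; zeros of PSMB8 are not drawn. In each pair every constitutive value lies above every immunoproteasome value, and PSMB9 is highest in GFP DMSO replicate 2 (69.9) and lowest in SMARCB1 Dox replicate 1 (25.6).

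Assembly of the core is guided by POMP, the maturation factor of the β ring, and by the chaperones PSMG1 to PSMG4. POMP was the densest of these at 798 ± 163 CPM per kilobase (SD, n = 8) and PSMG2, the partner of PSMG1, the least dense at 10.8 ± 3.86 (SD, n = 8). PSMG1 stood at 229 ± 44.1 (SD, n = 8), so the partners of this dimer differed by far more than their spread between libraries, although few windows of either gene occur elsewhere (1.91% and 1.44%). PSMG3 and PSMG4, which form a dimer of their own, averaged 169 ± 29.0 and 110 ± 25.8 (SD, n = 8).

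By library, POMP had 435 and 312 CPM in GFP DMSO, 237 and 289 in GFP Dox, 321 and 414 in SMARCB1 DMSO, and 393 and 299 in SMARCB1 Dox. PSMG1 had 198 and 172 CPM in GFP DMSO, 282 and 169 in GFP Dox, 174 and 171 in SMARCB1 DMSO, and 217 and 199 in SMARCB1 Dox. PSMG2 had 10.2 and 12.0 CPM in GFP DMSO, 5.46 and 13.3 in GFP Dox, 5.5 and 8.41 in SMARCB1 DMSO, and 5.52 and 8.24 in SMARCB1 Dox. GFP Dox replicate 1 was the lowest library for POMP and PSMG2 and the highest for PSMG1. PSMG3 had 62.4 and 56.1 CPM in GFP DMSO, 81.2 and 64.9 in GFP Dox, 50.2 and 71.3 in SMARCB1 DMSO, and 55.5 and 51.7 in SMARCB1 Dox. PSMG4 had 49.0 and 30.1 CPM in GFP DMSO, 31.8 and 31.5 in GFP Dox, 49.7 and 45.7 in SMARCB1 DMSO, and 53.0 and 35.2 in SMARCB1 Dox. The lines overlapped for all 5 of these genes.

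The chaperones of the base, PSMD5, PSMD9 and PSMD10, averaged 15.3 ± 3.30, 74.3 ± 12.7 and 105 ± 22.9 CPM per kilobase (SD, n = 8). Each was less dense than every base subunit other than PSMC1. PSMC1 averaged 17.3 ± 8.43 (SD, n = 8), close to PSMD5 and below PSMD9 and PSMD10. PSMD10 has 36.6% of its windows elsewhere and PSMD9 shares 32.8% of its coding bases, so their levels are uncertain. PSMD5 had 29.3 and 19.7 CPM in GFP DMSO, 32.3 and 22.8 in GFP Dox, 21.5 and 18.2 in SMARCB1 DMSO, and 20.6 and 20.3 in SMARCB1 Dox. PSMD9 had 49.0 and 45.9 CPM in GFP DMSO, 42 and 53.8 in GFP Dox, 36.9 and 59.9 in SMARCB1 DMSO, and 48.3 and 61.7 in SMARCB1 Dox. PSMD10, also known as gankyrin, had 74.2 and 61.5 CPM in GFP DMSO, 62.7 and 61.1 in GFP Dox, 71.9 and 107 in SMARCB1 DMSO, and 65.8 and 63.1 in SMARCB1 Dox. For PSMD10, SMARCB1 DMSO replicate 2 stood above the rest, and the lines overlapped for all 3 chaperones.

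Activators open the core without the regulatory particle or beside it. PSME1 and PSME2 form the interferon-inducible cap whose promoter windows are given above, PSME3 forms a nuclear cap and PSME4 a large monomeric one. PSME1 had 278 and 260 CPM in GFP DMSO, 353 and 270 in GFP Dox, 158 and 400 in SMARCB1 DMSO, and 198 and 215 in SMARCB1 Dox. PSME2 had 114 and 90 CPM in GFP DMSO, 104 and 93.5 in GFP Dox, 103 and 118 in SMARCB1 DMSO, and 90.5 and 82.8 in SMARCB1 Dox. The replicates of SMARCB1 DMSO spanned the whole range of PSME1, 2.54-fold, so no group stood apart.

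PSME3 had 320 and 257 CPM in GFP DMSO, 492 and 227 in GFP Dox, 256 and 366 in SMARCB1 DMSO, and 264 and 238 in SMARCB1 Dox. PSME4 had 188 and 170 CPM in GFP DMSO, 201 and 183 in GFP Dox, 194 and 131 in SMARCB1 DMSO, and 184 and 164 in SMARCB1 Dox. Per kilobase PSME3 averaged 397 ± 117 and PSME1 357 ± 107, while PSME4, with a coding sequence of 5529 bases, averaged 32 ± 4.02 (SD, n = 8 each). PSME2 averaged 139 ± 17.1 (SD, n = 8), with 59.9% of its windows found elsewhere. The group ranges overlapped for both PSME3 and PSME4.

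The first comparison asks whether re-expressed SMARCB1 altered footprint counts on the proteasome mRNAs relative to other genes. Such counts combine mRNA amount and translation, which are not separated here. A change in translation shared by all genes would not show after scaling. Between SMARCB1 Dox and SMARCB1 DMSO, the quasi-likelihood test of edgeR, adjusted by the Benjamini-Hochberg method, called 0 of the 47 members at an adjusted p below 0.05, with or without a fold change above 2. Of all genes tested, 0.018% were called under either rule. At an unadjusted p below 0.05 the count of members was also 0, where 4.97% of all genes passed, and DESeq2 called 0 members at its own adjusted p (0.324% of all genes). The median log2 difference of the members was -0.07, with 14 above and 33 below 0, against -0.02 over all genes. The core median was -0.06 and the regulatory median -0.07.

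The smallest p-values among members that were lower under Dox belonged to PSMD10, PSMC1 and PSME2, with log2 differences of -0.48 (SE 0.25), -0.93 (SE 0.50) and -0.35 (SE 0.23). PSMC1 had 14.5 and 45.5 CPM in SMARCB1 DMSO and 9.79 and 22.7 in SMARCB1 Dox, and these pairs overlapped. The SMARCB1 Dox libraries of PSMD10 and PSME2, given above, lay below both SMARCB1 DMSO libraries. Of their windows, 36.6% and 59.9% are found elsewhere. Among members higher under Dox, PSMG1, PSMD8 and PSMB5 had 0.27 (SE 0.26), 0.18 (SE 0.27) and 0.17 (SE 0.26). Of these, PSMG1 did not overlap between the groups. All the members named here were picked by p-value in this comparison, so their non-overlap adds no support. PSMD8, a lid subunit, had 92.9 and 163 CPM in SMARCB1 DMSO and 146 and 144 in SMARCB1 Dox. By edgeR each of these 6 genes had an adjusted p of 1. The 95% interval of a member's log2 difference had a median half-width of 0.56 and at most 1.09, so changes of up to that size in either direction could not be told from 0.

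In the GFP line, which controls for doxycycline and for the induction of a protein, 0 of the 47 members were called in edgeR's quasi-likelihood test, 0% of all genes were called, and DESeq2 called 0 members. At an unadjusted p below 0.05, 0 members and 2.16% of all genes passed. The median log2 difference of the members was 0.04, against 0.02 over all genes. The regulatory particle had 15 of 18 members above 0, with a median of 0.10, and the core 4 of 13, with a median of -0.08. Of all 11097 genes tested, 5865 were above 0. The median of all members was -0.11 without GFP Dox replicate 1 and 0.19 without GFP Dox replicate 2. The members with the smallest p-values above 0 changed sign without GFP Dox replicate 1. PSMD14, the deubiquitinase, at 1045 and 797 CPM in GFP DMSO and 2273 and 723 in GFP Dox, had a log2 difference of 0.70 (SE 0.40), which was -0.35 without that library. PSMD13, another lid subunit, at 647 and 581 CPM in GFP DMSO and 1268 and 549 in GFP Dox, had 0.57 (SE 0.33) and -0.16 without it. PSMB7 had 0.47 (SE 0.33) and -0.15 without it.

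Members with the smallest p-values among those lower in GFP Dox were POMP at -0.50 (SE 0.26), PSMB3 at -0.98 (SE 0.52) and PSMA6 of the α ring at -0.33 (SE 0.23). PSMB3 had 8.06 and 11.2 CPM in GFP DMSO and 1.99 and 7.69 in GFP Dox, and without GFP Dox replicate 1 its log2 difference was -0.33. By edgeR their adjusted p was 1, like that of PSMD14, PSMD13 and PSMB7.

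**Figure D4:**
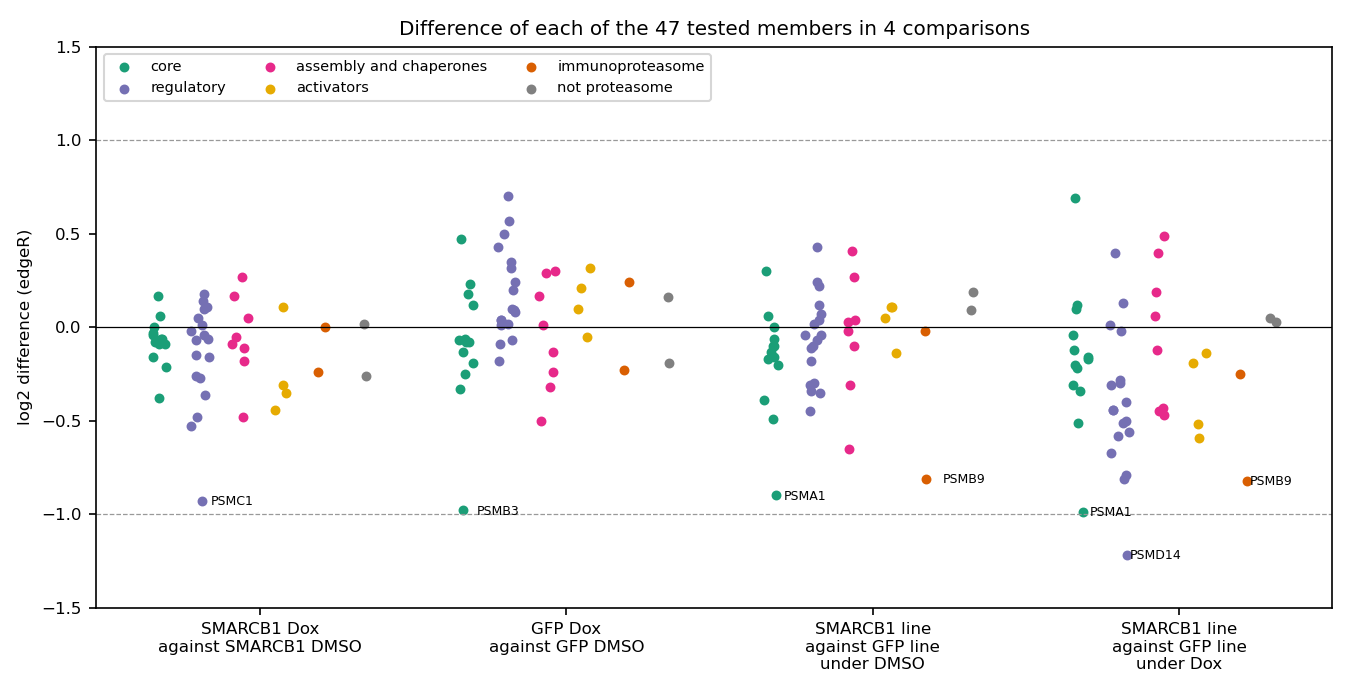
Log2 difference (edgeR) of each of the 47 tested members in 4 comparisons, with 1 point per gene colored by class. Dashed lines mark a 2-fold difference. Labels name PSMD14, PSMB9, PSMA1, PSMC1 and PSMB3 where they lie beyond 0.75, and other members beyond it are not labeled. Points spread around 0 in the Dox comparisons and lie mostly below 0 between the lines under Dox, where PSMD14 is lowest at -1.22; no point was called.

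Whether the lines responded differently to Dox was tested directly as the difference between these effects. No member was called (0 of 47) in edgeR's quasi-likelihood test, where 0% of all genes were called, 0 members had an unadjusted p below 0.05 (3.99% of all genes), and DESeq2 called 0 members (0.00901% of all genes). The members furthest below 0 by p-value were the lid subunits PSMD14 at -1.18 (SE 0.56), PSMD7 at -1.03 (SE 0.53) and PSMD13 at -0.83 (SE 0.47). Those above 0 were PSMB3 at 0.89 (SE 0.73), POMP at 0.42 (SE 0.37) and PSMD8 at 0.36 (SE 0.39). Without GFP Dox replicate 1 the values of PSMD14, PSMD7, PSMD13 and PSMB3 shrank to -0.13, -0.08, -0.10 and 0.23.

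GFP Dox replicate 1 decided several of these values. It was the highest of the 8 libraries for 21 of the 47 members (44.7%, against 22.3% of all genes tested) and the lowest for 5 (10.6%, against 23.1%). Its highest members relative to the others were the lid subunits PSMD14, PSMD7, PSMD13 and PSMD6, at 2.85, 2.33, 2.31 and 1.96 times the median of the other 7 libraries, together with PSMA1 at 2.12 times and PSMB7 at 1.96 times. PSMD7 had 419 and 302 CPM in GFP DMSO, 758 and 263 in GFP Dox, 380 and 473 in SMARCB1 DMSO, and 326 and 265 in SMARCB1 Dox. Other lid subunits, PSMD11 and PSMD3, were at their lowest in the same library, at 0.799 and 0.749 times the median of the others. Replicates of GFP Dox differed by more than 2-fold for 9 members (19.1%, against 16.4% of all genes), those of SMARCB1 DMSO and SMARCB1 Dox for 2 each (4.26%, against 8.46% and 4.87%), and those of GFP DMSO for 0 (against 2.23%). The part of the multiply aligned reads of this library in these values was not tested.

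**Figure D5:**
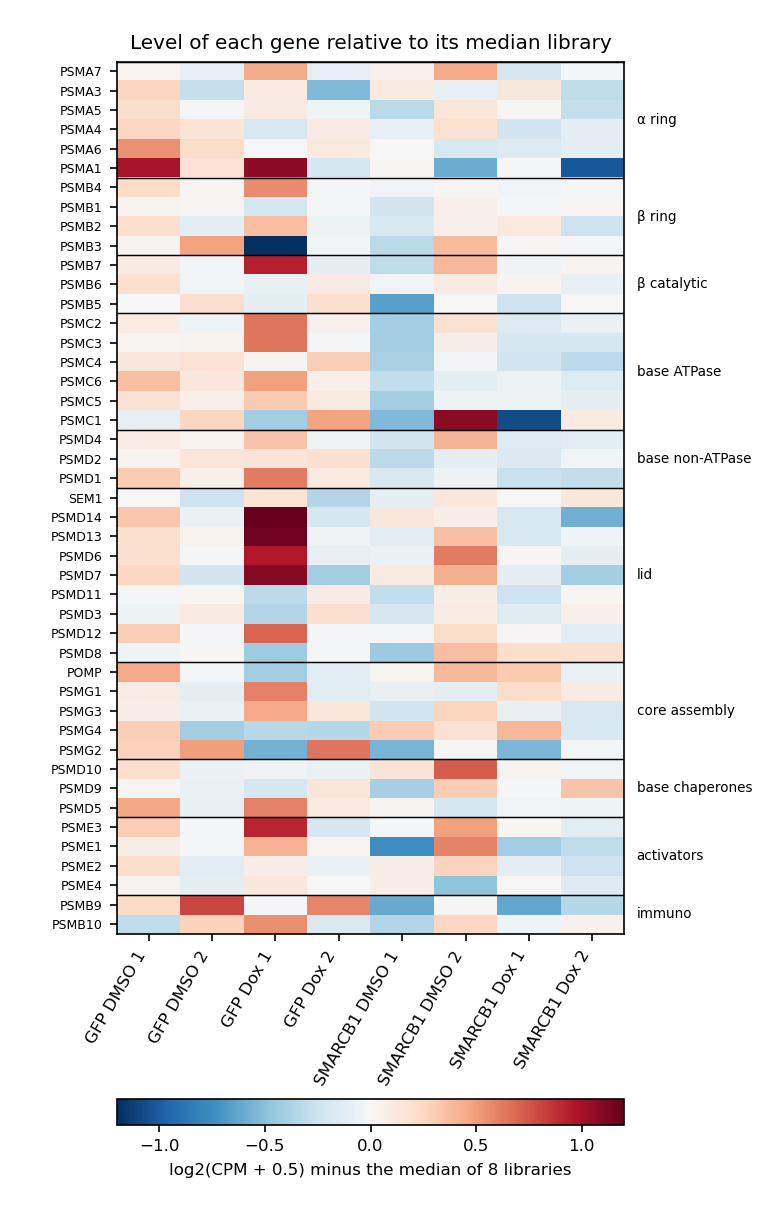
Level of each tested proteasome gene in each library as log2(CPM + 0.5) minus the median of the gene over the 8 libraries (red higher, blue lower, color saturating at the ends of the scale), with genes grouped by role from top to bottom. The column of GFP Dox replicate 1 holds deep reds for PSMD14, PSMD13, PSMD7 and PSMA1 and the deepest blue (PSMB3), and PSMC1 is deep red in SMARCB1 DMSO replicate 2.

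The lines were compared with each other under each treatment, since an effect of Dox is read against this difference. Under DMSO, 0 of the 47 members were called by edgeR at an adjusted p below 0.05, where 5.29% of all genes were called, or 4.97% with a fold change above 2. At an unadjusted p below 0.05, 2 members passed (13.9% of all genes did), and DESeq2 called 0 (6.7% of all genes). The median log2 difference of the members, SMARCB1 line minus GFP line, was -0.06, against 0.02 over all genes. PSMB9 had -0.81 (SE 0.32, adjusted p = 0.24), PSMA1 -0.90 (SE 0.42, adjusted p = 0.355) and PSMA6 -0.49 (SE 0.23, adjusted p = 0.36), all in the quasi-likelihood test. PSMA1 had 170 and 96.4 CPM in GFP DMSO, 180 and 73.5 in GFP Dox, 86.2 and 56.3 in SMARCB1 DMSO, and 84.6 and 41.9 in SMARCB1 Dox. PSMA6 had 358 and 286 CPM in GFP DMSO, 246 and 265 in GFP Dox, 244 and 215 in SMARCB1 DMSO, and 218 and 228 in SMARCB1 Dox. These 3 genes were picked by their p-values in this comparison, so non-overlap of their DMSO libraries adds no support. PSMB9, PSMA1 and PSMA6 share 80.2%, 59.1% and 56.4% of their sequence by one of the measures above. Of the 33 tested members under 20% shared, 0 had an unadjusted p below 0.05 in edgeR's test. On the other side, PSMD10, PSMA7 and PSMG4 had 0.41 (SE 0.25), 0.30 (SE 0.26) and 0.27 (SE 0.29).

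PSMA7 had 604 and 557 CPM in GFP DMSO, 810 and 556 in GFP Dox, 617 and 817 in SMARCB1 DMSO, and 514 and 587 in SMARCB1 Dox. Its difference between the lines thus had opposite signs under DMSO and under Dox, 0.30 and -0.31 (SE 0.26 each), and neither was called.

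Under Dox, 0 of the 47 members were called in edgeR's quasi-likelihood test, where 6.55% of all genes were called at an adjusted p below 0.05 and 6.08% with a fold change above 2. DESeq2 called 1, PSMD14 (log2 difference -1.22, adjusted p = 0.0236), where it called 8.75% of all genes at its adjusted p. At an unadjusted p below 0.05 in the edgeR fit, 5 members passed, PSMD14, PSMD1, PSMB9, PSMD13 and PSMA1, and 18.7% of all genes did. The median over the members was -0.28, with 35 of 47 below 0, against -0.01 over all genes. Without GFP Dox replicate 1 it was -0.09. The base, in which 9 of 9 members were below 0, and the lid each had a median of -0.44, and the core had -0.17.

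PSMD14 had the largest difference under Dox, at -1.22 (SE 0.40, adjusted p = 0.0963 in edgeR's quasi-likelihood test), with 731 and 560 CPM in SMARCB1 Dox against 2273 and 723 in GFP Dox. Without GFP Dox replicate 1 the value was -0.16, and without replicate 2, which leaves replicate 1 alone to stand for the group, it was -1.81 with adjusted p = 0.000218 by edgeR. PSMD1, a scaffold subunit of the base, had 663 and 561 CPM in GFP DMSO, 827 and 582 in GFP Dox, 469 and 515 in SMARCB1 DMSO, and 448 and 437 in SMARCB1 Dox. Its difference under Dox was -0.67 (SE 0.25, adjusted p = 0.148 in edgeR's test), and each library of the SMARCB1 line lay below each of the GFP line. Without GFP Dox replicate 1 it was -0.39. PSMB9 had -0.82 (SE 0.33, adjusted p = 0.188 in edgeR's test), close to its value under DMSO. Members higher in the SMARCB1 line were PSMG4, POMP and PSMD8, at 0.49 (SE 0.29), 0.40 (SE 0.26) and 0.40 (SE 0.27). With 1 library left out in turn, the difference under Dox ranged from -1.09 (without GFP Dox replicate 1) to -0.47 (without GFP Dox replicate 2) for PSMB9 and from 0.21 to 0.63, without the same libraries, for PSMD8. Without SMARCB1 Dox replicate 1 it was 0.15 for PSMG4 and 0.18 for POMP. In all 8 libraries PSMD8 had 122 and 127 CPM in GFP DMSO, 93.6 and 125 in GFP Dox, 92.9 and 163 in SMARCB1 DMSO, and 146 and 144 in SMARCB1 Dox.

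Averaged over both treatments, a contrast added after the data were seen, edgeR called 1 of the 47 members at an adjusted p below 0.05, where 11.2% of all genes were called. It was PSMB9 (ENSG00000240065, chr6:32844136-32859851, plus strand, hg38), lower in the SMARCB1 line by a log2 difference of -0.81 (SE 0.23, adjusted p = 0.0344). Its 4 SMARCB1 libraries held 16.8 to 26.4 CPM and its 4 GFP libraries 25.8 to 45.9, so the lines met at SMARCB1 DMSO replicate 2 and GFP Dox replicate 1. With each library left out in turn, the log2 difference of PSMB9 stayed between -0.99 and -0.64 and the adjusted p, from edgeR's test, ranged from 0.0095 to 0.205. It lay above 0.05 without GFP DMSO replicate 2 (0.205), GFP Dox replicate 2 (0.0676), SMARCB1 DMSO replicate 1 (0.115), SMARCB1 Dox replicate 1 (0.156) or SMARCB1 Dox replicate 2 (0.0717) in edgeR's test, so the call was lost for 5 of the 8 omissions. Over the other settings the adjusted p of PSMB9, by edgeR or DESeq2, ranged from 0.00459 to 0.0622. PSMA1 had -0.95 (SE 0.30, adjusted p = 0.0565) and PSMD1 -0.49 (SE 0.18, adjusted p = 0.0969) in the same quasi-likelihood test. DESeq2 called all 3 (13.3% of all genes). At an unadjusted p below 0.05, 6 members passed by edgeR, where 23.1% of all genes did. PSMB10 had -0.13 (SE 0.29), so the other tested immunoproteasome subunit was not called. With a fold change above 2 required, 0 members were called (7.35% of all genes).

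The 4 libraries of each line did not overlap for 6 members (12.8%), where 17.6% of all genes did not. In all 6 the SMARCB1 line was the lower, which held for 8.95% of all genes, so the share of members was near the background. They were PSMD1, PSMD2, PSMC4, PSMC5, PSMC6 and PSMA6. PSMC4 had 375 and 385 CPM in GFP DMSO, 349 and 419 in GFP Dox, 261 and 333 in SMARCB1 DMSO, and 290 and 275 in SMARCB1 Dox. PSMC5 had 263 and 242 CPM in GFP DMSO, 288 and 250 in GFP Dox, 175 and 223 in SMARCB1 DMSO, and 223 and 214 in SMARCB1 Dox. PSMD2, the scaffold subunit that receives ubiquitin shuttles, had 706 and 762 CPM in GFP DMSO, 767 and 788 in GFP Dox, 551 and 638 in SMARCB1 DMSO, and 610 and 673 in SMARCB1 Dox. Over both treatments all 9 base members had a log2 difference below 0, with a median of -0.32, and none was called in edgeR's quasi-likelihood test (3 had an unadjusted p below 0.05, and DESeq2 called 1, PSMD1).

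The 2 members that are not proteasome genes, PSMC3IP, a recombination factor, and PSME3IP1, a partner of the nuclear cap, averaged 44.5 ± 5.99 and 97.6 ± 15.6 CPM per kilobase (SD, n = 8), below most core and regulatory subunits. In the 4 comparisons of groups their log2 differences lay between -0.26 and 0.19, and neither was called in edgeR's quasi-likelihood test.

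Genes that work with the proteasome were read from a list of 33 partners, all of them tested. By edgeR the smallest adjusted p of a partner was 0.998 in the SMARCB1 line under Dox against DMSO, 1 in the GFP line and 0.981 for the difference between them. Between the lines, 1 partner was higher in the SMARCB1 line under DMSO and 1 lower under Dox at an adjusted p below 0.05, out of 33 partners in each, where 5.29% and 6.55% of all genes were called. Both shares of partners lay below those of all genes. NFE2L1, the transcription factor of proteasome genes, had 215 and 257 CPM in GFP DMSO, 263 and 272 in GFP Dox, 487 and 394 in SMARCB1 DMSO, and 369 and 420 in SMARCB1 Dox. All libraries of the SMARCB1 line lay above those of the GFP line, and 17.6% of all genes tested did not overlap between the lines in either direction. In edgeR's test the log2 difference was 0.90 under DMSO (SE 0.24, adjusted p = 0.0382) and 0.56 under Dox (SE 0.23, adjusted p = 0.206). Neither passed the fold threshold. In the same comparisons the medians of the proteasome members were -0.06 and -0.28. PAAF1, a further chaperone of the base, had 119 and 59.9 CPM in GFP Dox and 42.8 and 43.4 in SMARCB1 Dox, a log2 difference of -1.05 (SE 0.29, adjusted p = 0.0449 in edgeR's test), with GFP Dox replicate 1 again the highest library.

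Genes of MHC class I antigen processing, which use the peptides that proteasomes make, were read from a list of 16, of which 14 were tested. By edgeR the smallest adjusted p in either Dox comparison was 1. TAP1, the peptide transporter gene that neighbors PSMB9 on chromosome 6, had 146 and 364 counts in GFP DMSO, 63 and 153 in GFP Dox, 67 and 89 in SMARCB1 DMSO, and 82 and 73 in SMARCB1 Dox, with 89.3% of its windows on alternate or unplaced scaffolds. Its log2 differences between the lines were -1.07 (SE 0.46) and -0.87 (SE 0.47), with adjusted p = 0.298 and 0.349 in edgeR's test. Most tested genes of this list went the other way under DMSO, 10 above 0 and 4 below, with a median of 0.39. Under Dox 8 were above 0 and 6 below, with a median of 0.06. HLA-E, with 85.8% of its windows on such scaffolds, had 1.21 under DMSO (SE 0.35, adjusted p = 0.0625 in edgeR's test) and -0.36 under Dox (SE 0.35). Of the 13 cell type markers, 4 were tested, and COL1A1, a mesenchymal marker, was lower in the SMARCB1 line by log2 differences of -4.72 under DMSO and -4.86 under Dox (adjusted p = 3e-07 and 1.8e-07 in edgeR's test). The other mesenchymal markers had positive differences, 0.91 and 0.84 for VIM (adjusted p = 0.0715 and 0.0882 in edgeR's test) and 0.16 and 0.26 for COL1A2, and KRT18, an epithelial marker, had -0.62 and -0.79.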

How the data were processed

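Ribosome-protected fragments were profiled in 8 libraries of G401 cells, 2 in each of 4 groups. The authors deposited raw counts per gene. Per the submitters' processing notes and methods, reads were aligned to hg38 with STAR and counted over coding sequence with HTSeq (GENCODE 42). Tool versions and the strand setting are not given in the sources used here. The 5 HTSeq total lines per file did not enter library sizes.

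Libraries held 5924443 to 14000039 counts on genes. One edgeR 4.0.16 quasi-likelihood model (R 4.3.3, limma 3.58.1) with 1 term per group was fitted to all 8 libraries after edgeR's filter by group and TMM scaling, and p-values were adjusted over all 11097 genes. Calls needed an adjusted p below 0.05 and a fold change above 2, and counts at the adjusted p alone are given too. DESeq2 1.42.0, other scalings and filters, a replicate block, a robust fit, fits of the compared groups alone and leaving out each library were alternatives. In simulated counts the edgeR model recovered 85% of 4-fold and 19% of 2-fold changes for SMARCB1 Dox against SMARCB1 DMSO. For the difference between the Dox effects it recovered 57% and 2%. A 4-fold change counted as recovered when it was called in the right direction, and a 2-fold change at an adjusted p below 0.05 alone.

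Levels are CPM per kilobase of canonical coding sequence (GENCODE 44), since the authors' annotation was not used here. Sequence sharing was the share of 28-base windows found elsewhere in hg38, and the coding bases shared with other genes. In each comparison the 3 members with the smallest p-value in each direction were named, besides catalytic, assembly, chaperone and activator members. The members and lists were chosen with earlier results of these data known. One result on the antigen processing list is not reported here.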

Additional observations from a re-analysis of the deposited data

How the results depend on the processing

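The self-test recovered few 2-fold changes, so absent calls do not show equal levels, and members with shared or repeated sequence have uncertain levels. Scaling by library size alone took the median of all genes from -0.03 to 0.16 for the difference between the Dox effects, where the member median went from -0.09 to 0.15, and it turned the member medians of the SMARCB1 and GFP Dox comparisons to 0.04 and -0.04. Counts of members at an adjusted p below 0.05 changed as follows, and the cause was not tested. Between the lines averaged over treatments, a contrast chosen after seeing the data, the count was 0 by library size alone or with at least 10 counts in every library. It was 3 by DESeq2 or without a filter, where 13.3% and 10.9% of all genes were called. Under Dox it was 1 by DESeq2 (8.75% of all genes) and 2 without a filter (7.01%), with 1 past the fold threshold in each (7.29% and 5.82%). Under DMSO it was 1 without a filter (5.26% of all genes).

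With the replicate number as a block the count was 1 under DMSO, 1 under Dox (PSMA1 in both) and 2 averaged. Same-numbered libraries correlated at 0.0454 to 0.28 in their deviations, so the numbers were not taken to pair them.

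Leaving out 1 library in turn, the member median ranged from -0.25 to 0.11 for SMARCB1 Dox and from -0.11 to 0.19 for GFP Dox. It ranged from -0.31 to 0.09 for the difference, from -0.25 to 0.07 between the lines under DMSO and from -0.31 to -0.09 under Dox. Members at an adjusted p below 0.05 (and past the fold threshold) numbered 0 to 1 (0 to 1) for GFP Dox, 0 to 2 (0 to 2) for the difference, 0 to 10 (0 to 6) between the lines under Dox and 0 to 7 (0 to 1) averaged. The highest of these counts came without GFP Dox replicate 2, where 14.3% of all genes were called under Dox. Signs turned for PSMD14 (-0.35 to 1.3), PSMD13 (-0.16 to 1.04) and PSMB7 (-0.15 to 0.9) under GFP Dox, PSMB5 (-0.12 to 0.54), PSMC1 (-1.63 to 0.14) and PSMD8 (-0.17 to 0.64) under SMARCB1 Dox, PSMG4 between the lines under DMSO (-0.04 to 0.66) and PSMD8 averaged (-0.01 to 0.40).

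The core over regulatory ratio in GFP DMSO, GFP Dox, SMARCB1 DMSO and SMARCB1 Dox was 1.49, 1.5, 1.62 and 1.58 by medians, and 1.47, 1.24, 1.49 and 1.62 over members under 20% shared, chosen after seeing the data. In the same order it was 0.9, 0.772, 0.894 and 0.953 without the highest subunit of each particle, and 0.972, 0.837, 0.948 and 0.989 with the longest coding sequence. RefSeq protein lengths were not run.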

Other observations

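Core subunits differed in how far their levels spread over the libraries. PSMB1 of the β ring spanned 1.22-fold from its lowest to its highest library, PSMA4 1.39-fold, PSMA5 1.45-fold, PSMA7 1.59-fold, PSMA6 1.66-fold and PSMA3 1.73-fold, whereas PSMA1 spanned 4.29-fold and PSMB3 5.63-fold. In the regulatory particle PSMD11 spanned 1.33-fold and PSMD2 1.43-fold, against 4.06-fold for PSMD14 and 4.65-fold for PSMC1. The median replicate difference of the members on the log2 scale was 0.132 in SMARCB1 Dox, where it was 0.255 over all genes tested, and 0.432 in GFP Dox, where it was 0.444.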
